A study of Mus musculus with 48 samples.

Results

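miR-204 and miR-211 are a pair of closely related microRNAs (miRNAs) known for their high level in the choroid plexus. They were described here on 24 miRNA arrays of mouse cortex and whole brain. The members were taken by their names on the array. Of 3 names listed (mmu-miR-204, mmu-miR-211 and mmu-miR-448), 2 were among the 1080 miRNAs of the array, because miR-448 is present only as its separate arms, miR-448-5p and miR-448-3p. The members were selected on their levels as measured on these same arrays, so their levels below are a description and carry no test.

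The study asked how miRNAs and mRNAs change in the brain of Tg2576 mice during amyloid-beta accumulation. Total RNA of male mice was hybridised to 1-colour Agilent miRNA arrays and, under the same labels, to Agilent mRNA arrays. WT mice were C57BL/6J, and Tg2576 mice (strain Tg(APPSWE)2576Kha) carry human APP with the Swedish mutation, driven by the hamster prion protein promoter. Both genotypes were sampled at 10 and 17 months, from cortex or whole brain, which gave 8 groups of 3 arrays for each assay. The labels do not say whether a cortex and a whole brain with the same number came from 1 mouse, nor whether the 3 arrays of a group came from 3 animals, so the p-values measure the spread between these arrays.

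A miRNA is cut from a hairpin precursor, either arm of which can yield a mature strand, and it lowers the output of mRNAs that pair with its seed near the 5′ end. The choroid plexus is the secretory epithelium in the brain ventricles that makes cerebrospinal fluid. Its cells make transthyretin (Ttr), a carrier of thyroid hormone, in large amounts, and Klotho (Kl), a membrane protein that serves as a co-receptor for the hormone FGF23. Mir204 lies within Trpm3 and Mir211 within Trpm1, genes of cation channels of the melastatin family, and Mir448 lies within Htr2c, which encodes a serotonin receptor abundant in choroid plexus.

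The mature sequences are shown because the main strands of the pair can hardly be told apart by sequence while the other strands can. They come from RefSeq (GRCm38.p6), run 5′ to 3′, and have the seed (bases 2 to 8) in capitals. In order, they lie at chr19:22750610-22750631, chr7:64205831-64205852, chr19:22750649-22750669, chr7:64205868-64205888 and chrX:147158281-147158302, all on the plus strand. The array calls the 3p strands of the pair miR-204* and miR-211*.
miR-204-5p: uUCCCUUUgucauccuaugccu
miR-211-5p: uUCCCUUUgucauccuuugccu
miR-204-3p: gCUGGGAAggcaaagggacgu
miR-211-3p: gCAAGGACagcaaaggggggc
miR-448-3p: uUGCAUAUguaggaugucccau
The 5p strands shared 21 of 22 bases and the whole seed UCCCUUU. They differed by the substitution A17U, counted from 1 at the 5′ end with the base of miR-204 first. The same seed was found in 3 of the 1679 mature miRNAs of the table, the other being miR-7670-3p. In contrast, the 3p strands shared 14 of 21 bases and had different seeds. The seed of miR-448-3p was found in no other mature miRNA of the table.

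Levels are given as log2 of the signal relative to the 75th percentile of the array, taken over the 402 probes above background on all 24 miRNA arrays. For mRNA, the percentile was taken over the mRNA probes. The 75th percentile signal of the miRNA arrays ranged from 351.1 to 1604.4, and between 241 and 386 miRNAs were above background on an array. On the mRNA arrays this signal ranged from 507.0 to 823.6. The 24 miRNA arrays lay on 4 slides. The mRNA arrays lay on 3 slides, and no mRNA slide held both tissues of a tissue comparison. As a check of the genotype, the mouse App probe was read in every group. The log2 difference between Tg2576 and WT mice was -0.02 in cortex at 10 and 17 months and -0.02 in whole brain at 17 months. In whole brain at 10 months App was 5.77, 5.82 and 5.80 in WT and 5.96, 6.05 and 6.11 in Tg2576 mice, a difference of 0.25 without overlap (limma adjusted p = 0.431, beside 8.61% of all probes higher without overlap). Whether this probe reads the human transgene was not tested.

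miR-204 was above background with both of its probes on all 24 arrays. In the cortex of 10-month-old WT mice its level was 0.43, 0.25 and -0.59. In 10-month-old Tg2576 cortex it was 0.24, 0.48 and 0.26. In the cortex of 17-month-old mice it was -0.13, 0.32 and -0.27 in WT and 0.20, 0.45 and 0.04 in Tg2576. Thus the 3 lowest arrays of the whole series were all WT cortex, while the other 3 WT cortex arrays lay within the range of the Tg2576 cortex arrays.

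In whole brain, miR-204 was 0.44, 0.52 and 0.44 in WT and 0.42, 0.44 and 0.59 in Tg2576 at 10 months. At 17 months it was 0.62, 0.43 and 0.61 in WT and 0.45, 0.44 and 0.45 in Tg2576. The whole brain arrays therefore stayed within a narrow band whatever the genotype or age. Over 12 arrays, the range was 1.15-fold in whole brain and 2.11-fold in cortex. The pooled SD within groups was 0.074 and 0.337, respectively.

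**Figure D1:**
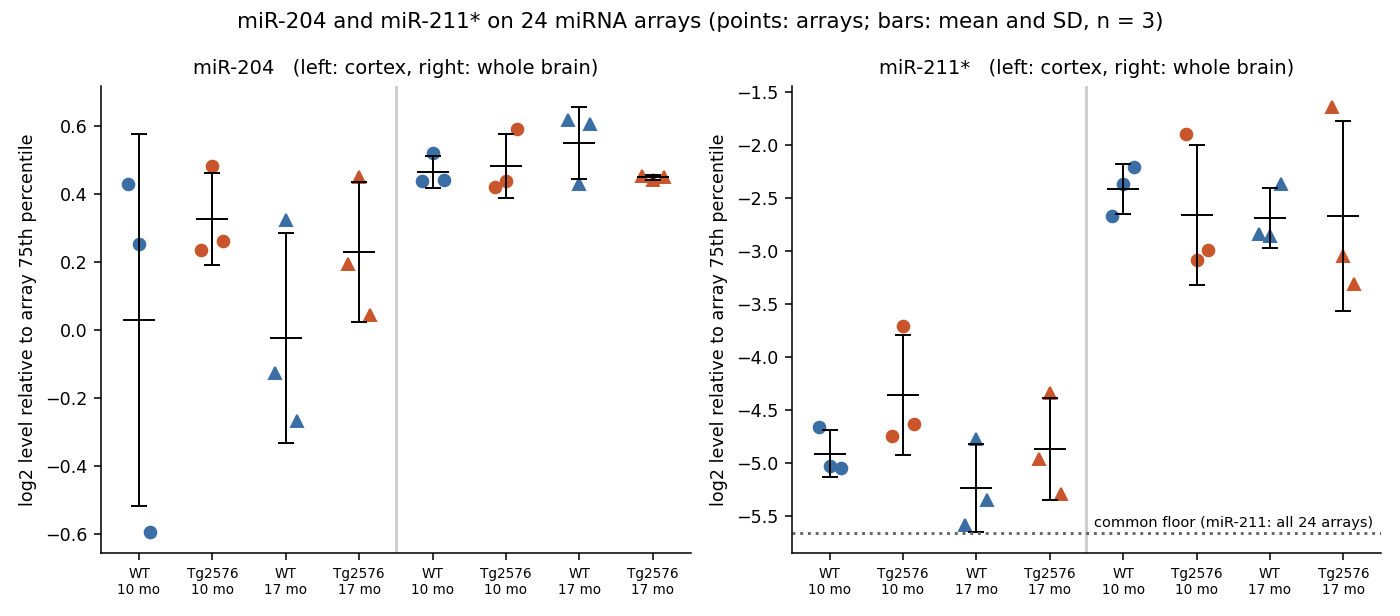
Log2 level of miR-204 (left) and of miR-211* (right) relative to the 75th percentile of the array, on each of 24 miRNA arrays. Points are arrays, bars are the mean and SD of 3 arrays, and the dotted line is the common floor of -5.67, where miR-211 lay on all 24 arrays; miR-204 was spread widely in cortex and narrowly in whole brain, while miR-211* was higher on all 12 whole brain arrays than on all 12 cortex arrays.

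In order of the group means, miR-204 was 0.55 ± 0.11 (SD, n = 3) in WT whole brain at 17 months and 0.48 ± 0.09 in Tg2576 whole brain at 10 months. It was 0.47 ± 0.05 in WT whole brain at 10 months and 0.45 ± 0.01 in Tg2576 whole brain at 17 months. The cortex groups followed, with 0.33 ± 0.14 in Tg2576 at 10 months, 0.23 ± 0.20 in Tg2576 at 17 months, 0.03 ± 0.55 in WT at 10 months and -0.02 ± 0.31 in WT at 17 months. Each neighbouring pair of groups in this order overlapped. Whole brain exceeded cortex by 0.44 in WT mice at 10 months and by 0.57 at 17 months, with no overlap between the groups. Without WT cortex replicate 3, the difference at 10 months was 0.12. Among all miRNAs tested in these comparisons, 12.9% and 9.28% lay higher in whole brain without overlap. In Tg2576 mice the tissue difference was 0.16 at 10 months and 0.22 at 17 months, and the groups overlapped. Leaving out 1 array, these ran from 0.10 to 0.23 and from 0.13 to 0.33. On the slide with 4 arrays of each tissue, cortex was all of 17 months and whole brain all of 10 months. There miR-204 ran from -0.27 to 0.45 in cortex and from 0.42 to 0.52 in whole brain, which overlap.

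Between genotypes, miR-204 in cortex was higher in Tg2576 than in WT mice by 0.30 at 10 months and by 0.25 at 17 months. Both differences were smaller than the pooled SD, which was 0.398 and 0.262. In whole brain the genotype difference was 0.02 at 10 months (pooled SD 0.074) and -0.10 at 17 months, where it was larger than the pooled SD of 0.075. Between ages, the difference of 17 less 10 months was -0.05 in WT cortex, -0.10 in Tg2576 cortex, 0.08 in WT whole brain and -0.03 in Tg2576 whole brain. Of these age differences, only that in WT whole brain (0.0842) was larger than its pooled SD (0.0816). The groups overlapped in all 8 comparisons of genotype and age. Without overlap were 11.4%, 22%, 10.2% and 9.44% of all miRNAs tested between genotypes, in the order above, and 10.3%, 30.8%, 12.5% and 7.53% between ages. The genotype difference in cortex at 10 months rested on 1 array: without WT replicate 3 it was -0.01, and with the authors' log2 values it was near 0 with all 6 arrays. At 17 months it ran from 0.13 to 0.43 with 1 array left out. With single arrays left out, the small age difference turned sign in WT cortex (to 0.15 without 10 months replicate 1) and in Tg2576 whole brain (to 0.02 without 10 months replicate 3). It kept its sign in Tg2576 cortex (-0.21 to -0.005) and in WT whole brain (0.05 to 0.15). The lowest array, WT cortex 10 months replicate 3, lay on a slide that held 1 other miRNA array.

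The 2 probes of miR-204 differed in brightness, by 2.28 to 2.66 on the log2 scale in cortex and by 2.11 to 2.56 in whole brain. Over the 12 cortex arrays they moved together, with r = 0.967 between the probes. Over the 12 whole brain arrays r was 0.47. The wide cortex range thus appeared on each probe: the brighter probe ran from 0.19 to 1.23 and the dimmer from -2.46 to -1.12. In cortex the level of miR-204 had r = -0.06 with the log2 signal of the array, and in whole brain r = 0.437.

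miR-211, the close relative, gave no level above the floor. With 4 probes, a probe was above background on 2 of 12 cortex arrays and on 6 of 12 whole brain arrays. The mean over the probes was at the common floor of -5.67 on all 24 arrays. The groups therefore have no order, and no difference between them can be given. The count of arrays above the floor was 9 when the brightest probe alone was taken and 10 with the total signal that Feature Extraction gives per miRNA. With a floor 4 times lower it was 24.

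miR-448 was likewise at the floor. miR-448-5p was above background on 0 of 24 arrays, and miR-448-3p on 0 of 12 cortex and 7 of 12 whole brain arrays. The other miRNAs within Htr2c (miR-764, miR-1264, miR-1298 and miR-1912, with all their arms) were also at the floor on all 24 arrays. Among them, miR-764-5p was above background on 11 of 12 arrays of each tissue, and miR-1298* on 3 of 12 cortex and 10 of 12 whole brain arrays. miR-204*, the other strand of the miR-204 hairpin, was above background on 0 of 12 cortex and 2 of 12 whole brain arrays.

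The other strand of the miR-211 hairpin, miR-211*, was measured more often than miR-211 itself and separated the tissues. It was above background on 8 of 12 cortex and 12 of 12 whole brain arrays. In WT cortex it was -4.66, -5.03 and -5.05 at 10 months and -5.58, -4.78 and -5.35 at 17 months, the latter not well above background. In Tg2576 cortex it was -4.74, -3.70 and -4.63 at 10 months and -4.96, -4.34 and -5.30 at 17 months. The 12 cortex arrays ranged from -5.58 to -3.70.

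In WT whole brain miR-211* was -2.67, -2.36 and -2.21 at 10 months and -2.84, -2.86 and -2.36 at 17 months. In Tg2576 whole brain it was -1.90, -3.09 and -2.99 at 10 months and -1.64, -3.05 and -3.31 at 17 months. The 12 whole brain arrays ranged from -3.31 to -1.64, so no whole brain array overlapped with cortex. This gap was also seen on the slides that held both tissues, but the tissues there also differed in age. On the slide with 4 arrays of each tissue, cortex was all of 17 months and whole brain all of 10 months. There cortex ranged from -5.35 to -4.34 and whole brain from -2.67 to -1.90. On this slide, the cortex arrays of WT replicate 3 and Tg2576 replicate 3 were not above background. On the slide with 1 array of each, cortex (10 months) was -5.05 and whole brain (17 months) -2.86.

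Over all miRNAs detected in each comparison, miR-211* was higher in whole brain than in cortex of 10-month-old WT mice by 2.50 (SE 0.161, limma adjusted p = 0.00206, n = 3 per group), a 5.65-fold difference. There 0.943% of the miRNAs tested were called higher. At 17 months its cortex level in WT mice is only a bound, so the difference was at least 4.37-fold, with a fitted adjusted p of 0.00827 in limma (0.599% called higher). It was above background on 0 of the 3 WT cortex arrays at 17 months and entered this test only through whole brain, so the fitted p is not read as support. In Tg2576 mice the difference was 1.70 (SE 0.425, limma adjusted p = 0.369) at 10 months and 2.20 (SE 0.503, limma adjusted p = 0.059) at 17 months, where 0.267% and 6.67% were called higher. The groups did not overlap in any of these 4 comparisons. Of the miRNAs tested, 12.9%, 9.28%, 7.22% and 22.7% lay higher without overlap, in the same order. miR-211* had the highest difference of all miRNAs tested in each. In WT mice at 17 months, this rank and the lack of overlap rest on cortex values not above background. They are not read as support there.

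The call in WT mice at 10 months was lost when the slide was taken into account. The adjusted p of miR-211* in limma was 0.0789 with the slide as a random block and 0.206 in a single model of all 24 arrays that included the slide. At 17 months, where the cortex value is a bound, the same fits gave 0.0785 and 0.0167. The fitted p at 17 months was 0.297 with the authors' log2 values, 0.0753 with the total signal and 0.153 with the unpaired test of the study's methods (all adjusted). None of the 8 comparisons of genotype and age passed the test for miR-211*. The sizes ran from -0.51 (17 less 10 months, Tg2576 cortex) to 0.55 (Tg2576 less WT, cortex at 10 months), and the limma adjusted p was at least 0.457. Over all miRNAs, limma called 0% in all 4 comparisons of genotype and 0%, 8.65%, 0.299% and 0% between the ages (WT cortex, Tg2576 cortex, WT whole brain and Tg2576 whole brain).

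Of the host genes, Trpm1 (A_55_P2043782) was higher in whole brain in each comparison of tissue, without passing limma's test in the setting used throughout. Its level in cortex was 0.89, 1.41 and 1.19 in WT and 1.41, 1.42 and 1.13 in Tg2576 at 10 months. At 17 months it was 1.33, 1.55 and 0.95 in WT and 1.29, 1.70 and 1.68 in Tg2576. In whole brain it ranged from 1.51 to 2.45, with a median of 2.02. The difference between whole brain and cortex was 0.65, 0.64, 0.60 and 0.64 in WT at 10 and 17 months and Tg2576 at 10 and 17 months. The limma adjusted p was 0.105, 0.0944, 0.214 and 0.0712, with no overlap between the groups. With normexp background correction it passed in all but Tg2576 mice at 10 months (limma adjusted p = 0.0183, 0.0491 and 0.0245). It also passed in WT mice at 17 months with all 24 arrays in one model (limma adjusted p = 0.0393) and in Tg2576 mice at 17 months with no filter on dim probes (limma adjusted p = 0.0388). With the slide added to the model of all 24 arrays, the differences were 1.14, 0.36, 0.68 and 0.03 in the same order (limma adjusted p = 0.0974, 0.831, 0.577 and 0.992). Higher without overlap were 16.6%, 17.8%, 14.8% and 12.7% of all mRNA probes tested. The other 2 Trpm1 probes were each above background on 1 of 24 arrays. Of these, A_55_P2037997 is annotated to the same transcript as A_55_P2043782, with a median level of -7.24 against 1.61. Whether the brighter probe reads Trpm1 was not tested.

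**Figure D2:**
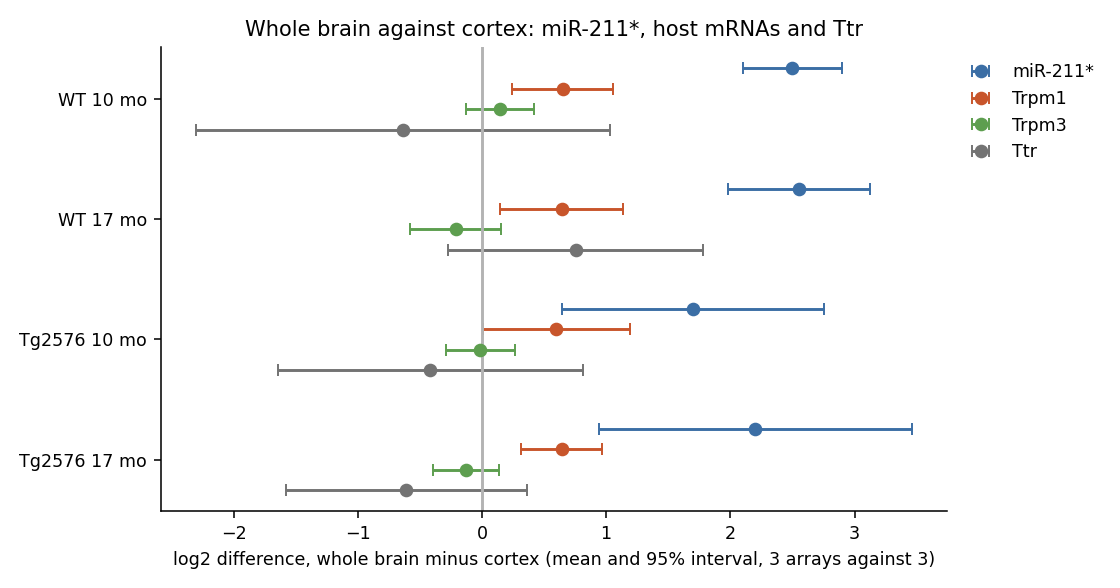
Difference between whole brain and cortex on the log2 scale in each genotype and age for miR-211*, the brightest probes of Trpm1 and Trpm3, and Ttr (3 arrays against 3). Points are means and bars 95% intervals from limma; miR-211* lies between 1.70 and 2.55 (a fitted value at 17 months in WT) and Trpm1 between 0.60 and 0.65, while the intervals of Trpm3 and Ttr include 0.

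Trpm3, the host of miR-204, did not follow the tissue in the same way. Its brightest probe (A_66_P134073) ranged from -2.09 to -1.42 in cortex and from -2.08 to -1.38 in whole brain. In whole brain it was lower at 17 than at 10 months by 0.50 in WT mice (-0.50, SE 0.0992, limma adjusted p = 0.0165), where 15.2% of probes were called lower. In Tg2576 mice this difference was -0.39 (SE 0.103, limma adjusted p = 0.06, with 5.55% called lower). The call in WT mice was lost without 17 months replicate 1 (-0.46, limma adjusted p = 0.0509) and in a model of all 24 arrays that included the slide (-0.29, limma adjusted p = 0.433). The WT whole brain arrays of 10 months all lay on one mRNA slide and those of 17 months on another, so age and slide cannot be told apart within this comparison.

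Another Trpm3 probe (A_55_P2075692), picked after its values were seen, moved with miR-204 across the cortex. It was above background on all 24 arrays and ranged from -3.40 to -1.86 in cortex and from -2.99 to -2.19 in whole brain. Over the 12 cortex arrays it had r = 0.817 with miR-204 and r = 0.93 with Ttr, given as a description. The brightest Trpm3 probe had r = 0.576 with miR-204. In whole brain the values with miR-204 were 0.038 and -0.161. Between miR-211* and Trpm1, r was 0.164 in cortex and -0.453 in whole brain. The age difference (17 less 10 months) of A_55_P2075692 in whole brain was -0.23 in WT and -0.29 in Tg2576 mice. Neither passed limma's test (adjusted p = 0.217 and 0.327). That of the remaining Trpm3 probe, A_55_P2075686, was -1.06 in Tg2576 mice (limma adjusted p = 0.0249, with 5.55% called lower). This probe was above background on 11 of 24 arrays.

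Ttr, whose probe was above background on all 24 arrays, spanned a 9.81-fold range in cortex. In WT cortex it was 5.85, 5.73 and 3.58 at 10 months and 2.66, 4.21 and 4.17 at 17 months. In Tg2576 cortex it was 4.11, 5.95 and 5.0 at 10 months and 5.62, 5.75 and 4.22 at 17 months. The lowest values belonged to WT cortex arrays that were also low in miR-204, namely 10 months replicate 3 and 17 months replicate 1. In whole brain Ttr ranged from 3.73 to 5.16, which is 2.70-fold.

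Kl was lowest on the same arrays as Ttr. In WT cortex it was -0.50, -0.81 and -2.21 at 10 months and -2.30, -1.67 and -1.69 at 17 months. In Tg2576 cortex it was -1.67, -0.91 and -1.18 at 10 months and -0.86, -0.93 and -1.81 at 17 months. In whole brain Kl ranged from -2.09 to -1.30. The SD within groups was 0.999 for Ttr and 0.589 for Kl in cortex, against 0.454 and 0.157 in whole brain.

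The miR-204 level was set beside Ttr and Kl across the cortex arrays. These values are a description with no test, since the choice of miR-204 placed it beside both genes. Over the 12 pairs of miRNA and mRNA arrays with the same label, r of miR-204 was 0.729 with Ttr (Spearman's rho 0.811) and 0.769 with Kl (rho 0.685). Without the 2 arrays farthest from the median of the mRNA, r was 0.715 for Ttr and 0.754 for Kl. Leaving out any 1 array, r was at least 0.693 and 0.72. Using deviations from the mean of each group, which takes genotype and age out, r was 0.77 and 0.828. On the 7 cortex arrays of a single slide, r was 0.867 and 0.808.

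**Figure D3:**
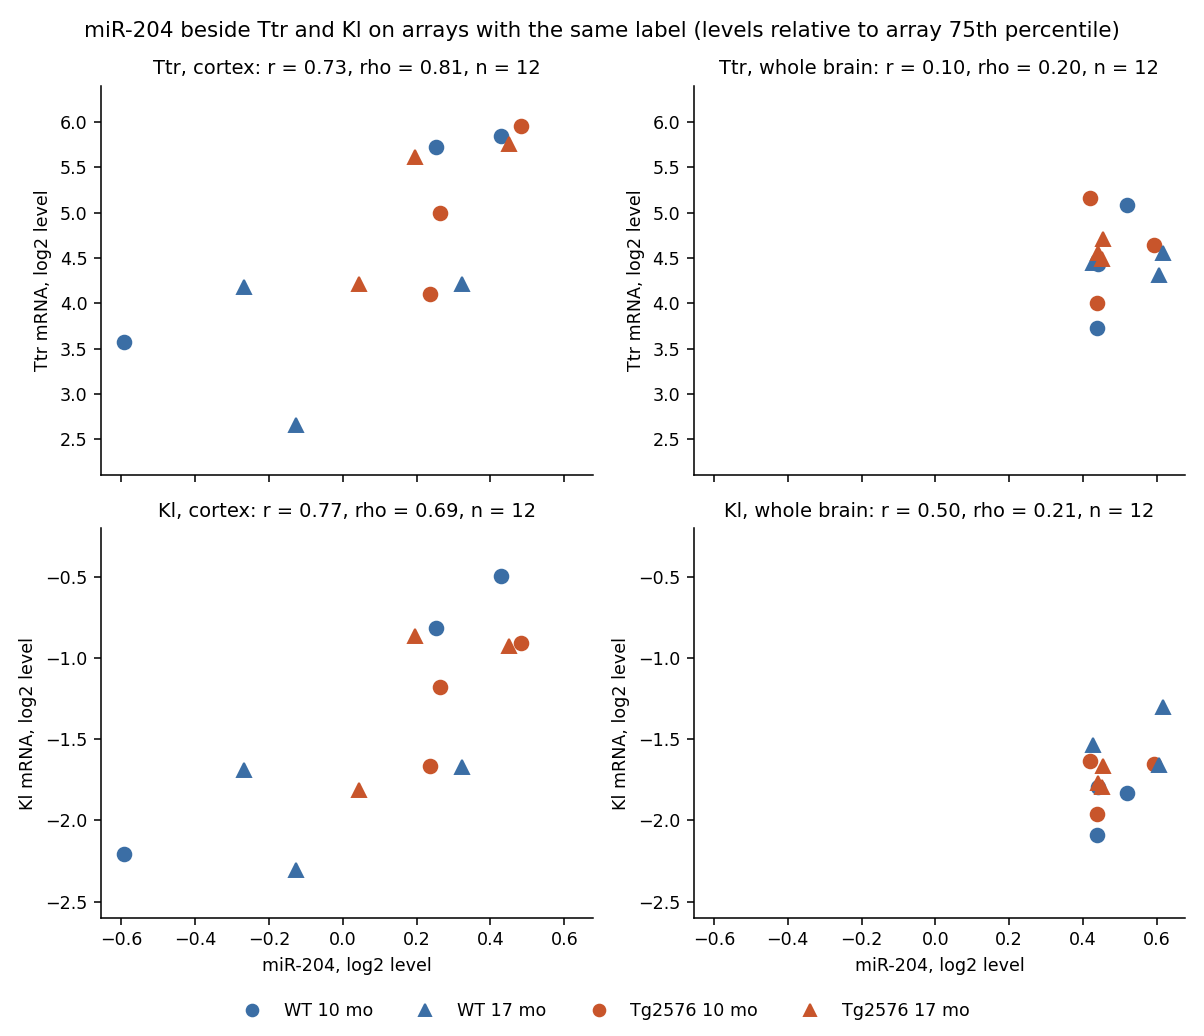
Ttr (top) and Kl (bottom) level against the miR-204 level in cortex (left) and whole brain (right), both log2 relative to the 75th percentile of the array, with each point a pair of arrays of the same label. In cortex r was 0.729 for Ttr and 0.769 for Kl over 12 pairs, and in whole brain, where miR-204 varied little, 0.098 and 0.503.

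In whole brain, where miR-204 had a smaller range, r was 0.098 for Ttr (rho 0.196) and 0.503 for Kl (rho 0.21). The value for Kl rested on few arrays, since it was 0.14 without the 2 arrays farthest from the median and 0.229 without WT 17 months replicate 1. On the 7 whole brain arrays of a single slide it was 0.741. The difference between the tissues was not tested. For miR-211* in cortex, r was 0.694 with Ttr (rho 0.72) and 0.607 with Kl (rho 0.636), again as a description. Of these 12 cortex arrays, 4 were not above background for miR-211*, namely the 3 WT arrays of 17 months and Tg2576 17 months replicate 3. Without the 2 farthest arrays the values were 0.487 and 0.516, and without WT 17 months replicate 1 alone they were 0.584 and 0.489. In whole brain they were 0.429 and 0.106 (rho 0.329 and 0.203).

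The same pattern ran through a list of 28 genes of choroid plexus epithelium, of which 27 had a probe. In cortex, 18 of the 27 had r above 0.5 with miR-204, with Ttr and Kl counted among them. The median r of the 27 was 0.687. Over all 15764 genes, the median r was -0.028 and 6.42% were above 0.5. High in the list were Prlr, the prolactin receptor (r = 0.948), Col8a2, a collagen of basement membranes (0.876), Sostdc1, a secreted BMP and Wnt antagonist (0.812), and Slc4a5, a sodium bicarbonate transporter (0.809). For the folate receptor Folr1 r was 0.766, for the water channel Aqp1 0.736 and for the transcription factor Otx2 0.735. The list also held genes that did not move with miR-204, such as Car12 (0.126), Igfbp2 (-0.202) and Slc13a4 (-0.37). In whole brain the median r of the list was 0.196, beside 0.034 over all genes.

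**Figure D4:**
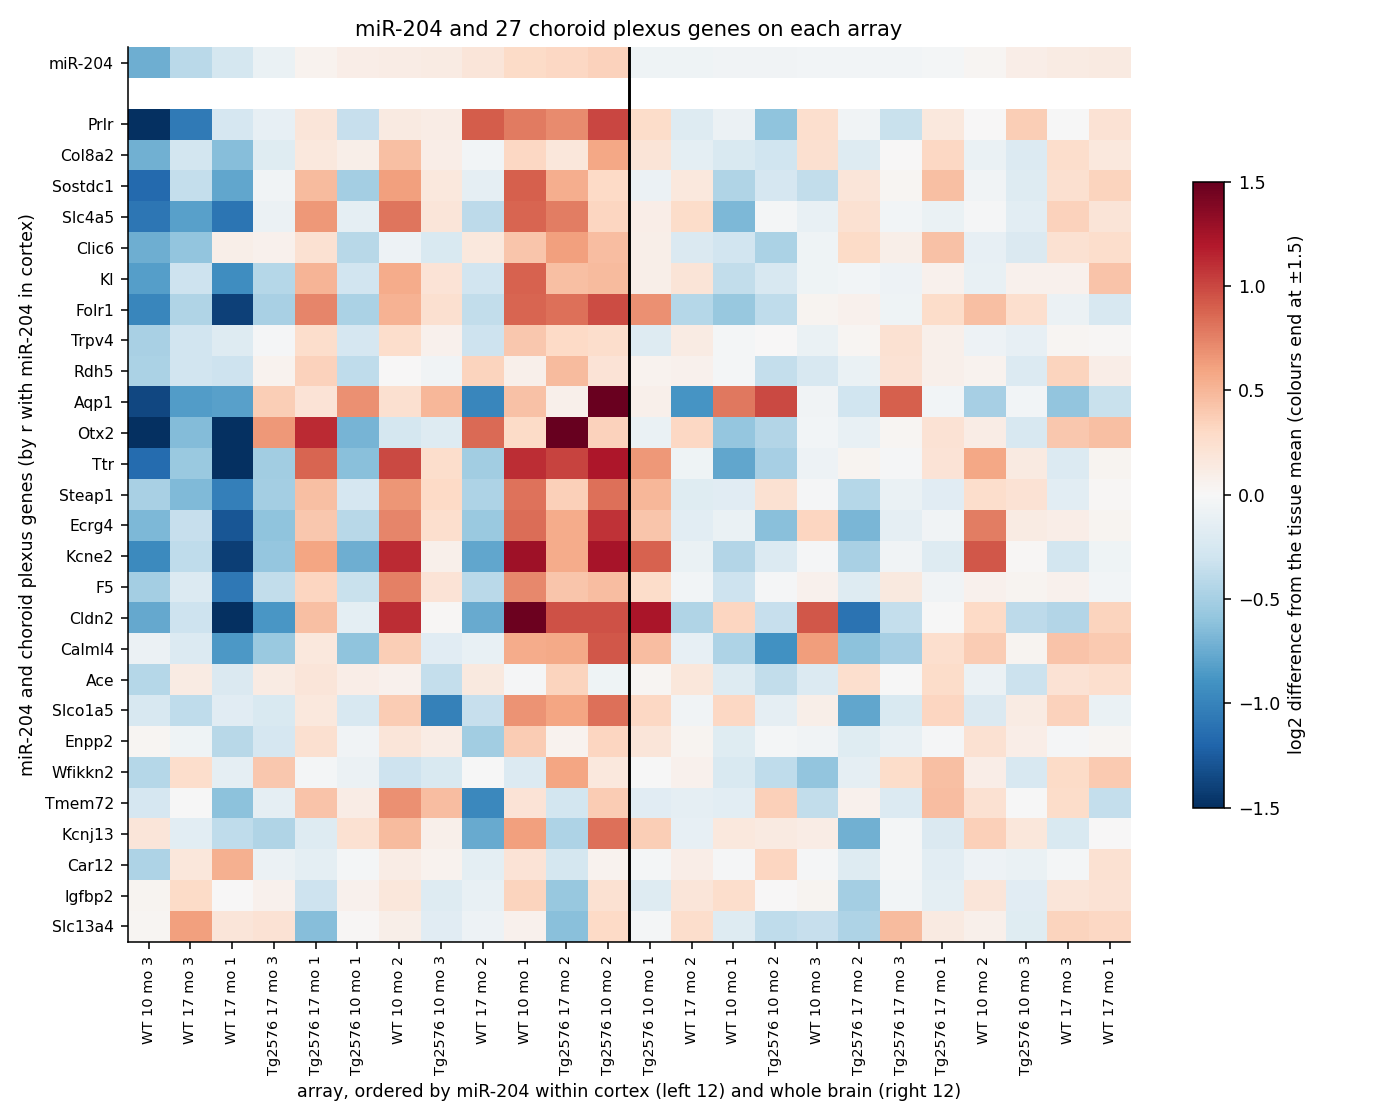
Log2 difference from the tissue mean for miR-204 (top row) and 27 choroid plexus genes on each of 24 array pairs, ordered by miR-204 within cortex (left 12) and whole brain (right 12), with genes ordered by their r with miR-204 in cortex. Most genes of the list are below their mean on the cortex arrays with low miR-204 and above it on those with high miR-204, whereas Slc13a4, Igfbp2 and Car12 at the bottom do not follow, and the whole brain columns are pale.

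On WT cortex 10 months replicate 3, the array lowest in miR-204, 4 of 27 choroid plexus genes were above their cortex mean, with a median deviation of -0.51. WT cortex 17 months replicate 1 also had 4, with a median deviation of -0.64. At the other end, Tg2576 cortex 10 months replicate 2, the array highest in miR-204, had 26 genes above the mean and a median deviation of 0.46. WT cortex 10 months replicate 1 had 25 and 0.56. An exception was WT cortex 17 months replicate 2, where miR-204 lay 0.18 above its cortex mean and 5 genes were above theirs. Another was Tg2576 cortex 10 months replicate 1, where miR-204 lay 0.096 above its mean, 7 genes were above theirs and the median deviation was -0.25. In these bulk tissues, fewer choroid plexus cells and less RNA per cell cannot be told apart. The SD over arrays was larger in cortex than in whole brain for 25 of the 27 genes (median 0.538 against 0.282), beside 41.5% of all genes.

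Other marker lists also lay away from the median of all genes in cortex. All 8 ependyma genes, which mark the ciliated cells lining the ventricles, had r above 0 with a median of 0.499. The 5 thalamus genes had a median r of 0.603 and the 6 measured cerebellum genes 0.333. In contrast, all 10 genes of cortical projection neurons had a negative r, with a median of -0.511, and 9 of 10 meningeal fibroblast genes did (median -0.305). The summed level of the projection neuron genes ranged from 4.79 to 5.59 over the cortex arrays and from 4.72 to 5.24 over whole brain, so this cortical marker list was present in both tissues. The summed thalamus level ran from 1.72 to 3.76 in cortex and from 2.44 to 3.06 in whole brain, and the cerebellum level from 1.58 to 4.45 and from 2.67 to 5.60. What these other brain parts contribute to the level of miR-204 was not tested. In whole brain, the 6 measured cerebellum genes all had r above 0.5 with miR-204 (median 0.68). For miR-211*, the median r was higher for the ependyma genes than for the choroid plexus list in both tissues. It was 0.659 against 0.539 in cortex, beside -0.042 over all genes. In whole brain it was 0.589 against 0.239, beside -0.064 over all genes. The 5 measured melanocyte genes had a median r in cortex and whole brain of -0.171 and -0.369 with miR-204 and of 0.409 and 0.049 with miR-211*. For the 3 measured genes of retina and pineal gland the medians were 0.316 and -0.093 with miR-204 and -0.044 and 0.255 with miR-211*.

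**Figure D5:**
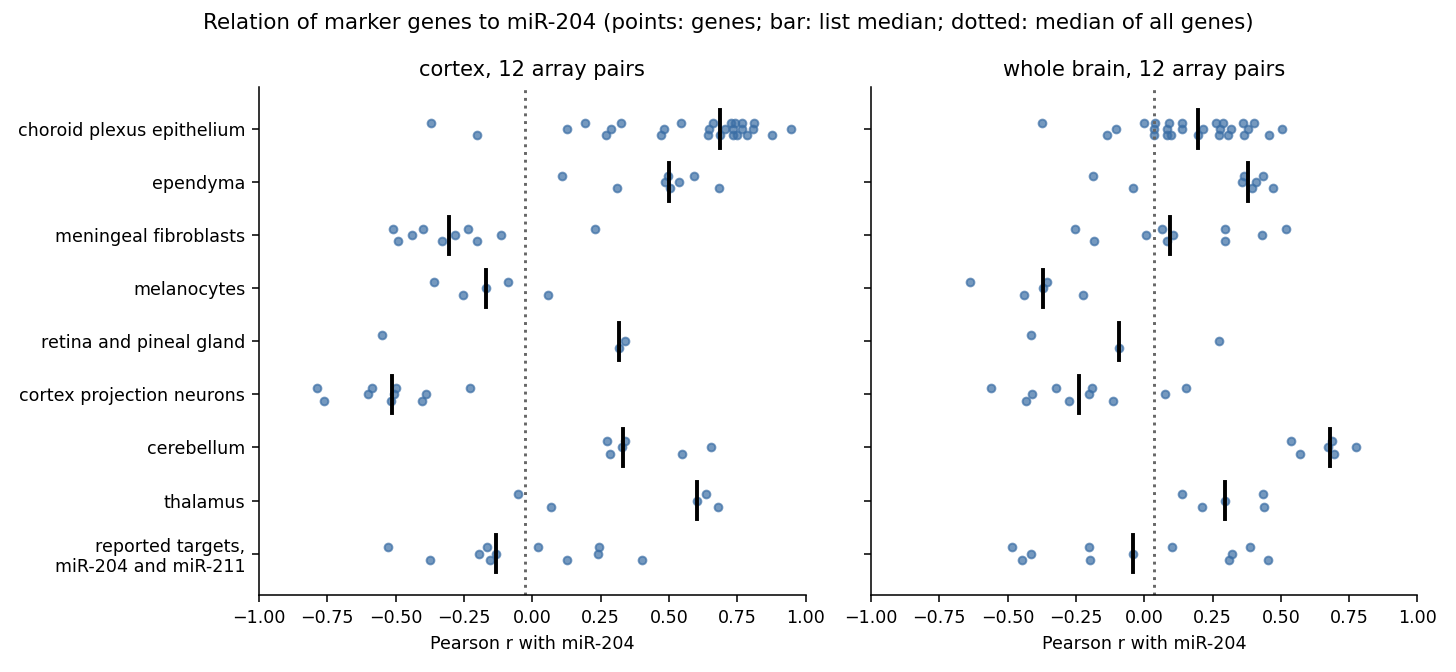
Pearson r of each gene of 9 marker or target lists with miR-204 over 12 array pairs in cortex (left) and in whole brain (right). Points are genes, black bars list medians and the dotted line the median of all 15764 genes; in cortex the choroid plexus median is 0.687 and the projection neuron median -0.511, and in whole brain the cerebellum median is 0.68.

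The 11 measured genes of a list of reported targets of the pair showed no common direction. In cortex 6 of them had a negative r with miR-204 and the median was -0.132. In whole brain 6 of 11 did, with a median of -0.042. In the comparisons, Tgfbr2, a TGF-beta receptor, was higher at 17 months in Tg2576 cortex (0.40, limma adjusted p = 0.0248, 5.6% of probes called higher). It was also higher at 17 months in WT whole brain (0.56, limma adjusted p = 0.00647, 12.7% called higher), with the zinc-finger repressor Snai2 (0.40, adjusted p = 0.0483). There the membrane linker Ezr (-0.23, limma adjusted p = 0.034), the neurotrophin receptor Ntrk2 (-0.24, adjusted p = 0.0371) and the bone transcription factor Runx2 (-0.79, adjusted p = 0.0284, above background on 1 of 3 arrays at 17 months) were lower (15.2% called lower). As for Trpm3, the ages of WT whole brain lay on different mRNA slides, and so did those of Tg2576 cortex. In WT mice at 17 months the transcription factor Sox4 was higher in whole brain than in cortex (0.53, limma adjusted p = 0.0212, 3.86% called higher).

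The choroid plexus genes were also compared between the groups. In cortex at 17 months, 24 of the 27 were higher in Tg2576 than in WT mice, with a median difference of 0.47 beside 0.01 over all probes. Ttr was higher by 1.51 (SE 0.568, limma adjusted p = 0.516) and Kl by 0.69 (SE 0.301, limma adjusted p = 0.545). With the mRNA slide as a block, which 1 WT array shared with the 3 Tg2576 arrays, the values were 1.02 and 0.49 (limma adjusted p = 0.826 and 0.843). In 5 genes (Ttr, Slc4a5, Aqp1, Sostdc1 and Trpv4) the groups did not overlap, beside 8.75% of all probes higher without overlap. None passed limma's test (0% of all probes called), and 9 of 27 had an unadjusted p under 0.05, beside 9.32% of all probes. The unpaired test of the study's methods also called none after adjustment. Markers of other cells lay apart in the same comparison: all 10 meningeal fibroblast genes were lower (median -0.59, 6 with unadjusted p under 0.05), all 5 thalamus genes were higher (median 0.60) and 5 of 8 ependyma genes were higher (median 0.04). Their part in the result was not tested. At 10 months in cortex 12 of 27 were higher, with a median of -0.03 and 0 called (limma, 0 with unadjusted p under 0.05 beside 9.95% of all probes, 0% of all probes called). The interaction of genotype and age in cortex, which asks whether the genotype difference changed with age, was 1.55 for Ttr (SE 1.03, limma adjusted p = 0.642), and 0 of the 27 genes passed (0 at an unadjusted p under 0.05 beside 9.41% of all probes, 0% of all probes called).

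In whole brain the genotype difference of the list was small, with a median of 0.04 at 10 months and -0.10 at 17 months. Limma called 0 of 26 tested genes at either age, beside 0% of all probes in both. An unadjusted p under 0.05 was found for 1 and 4 genes, beside 11.4% and 13% of all probes. The unpaired test also called none after adjustment. With age in WT whole brain, limma called 3 of 26 tested genes higher, a share not above the 12.7% of all probes called higher. An unadjusted p under 0.05 was found for 8 of the 26, beside 42.4% of all probes. The 3 genes called were Sostdc1 (0.54, SE 0.121, limma adjusted p = 0.0238), the sulfate transporter Slc13a4 (0.46, SE 0.113, adjusted p = 0.0311) and the angiotensin-converting enzyme Ace (0.38, SE 0.0644, adjusted p = 0.0114). In Tg2576 whole brain limma called 1 of 26 tested genes lower with age, a share not above the 5.55% of all probes called lower. It was the metalloreductase Steap1 (-0.54, SE 0.128, limma adjusted p = 0.0445). An unadjusted p under 0.05 was found for 5 of the 26, beside 31.7% of all probes. With the replicate block, none of these 4 passed limma's test, and the adjusted p of the 4 ran from 0.0568 to 0.0935. The ages of WT whole brain lay on different mRNA slides. In the model of all 24 arrays that included the slide, the limma adjusted p was 0.65 for Sostdc1, 0.359 for Slc13a4, 0.0979 for Ace and 0.403 for Steap1, and with the slide as a random block that of Steap1 was 0.0878. Leaving out 1 array, Ace passed in all 6 fits, Sostdc1 only without 10 months replicate 2 or 17 months replicate 2, Slc13a4 only without 10 months replicate 2, and Steap1 in none. The adjusted p of the lost calls ran from 0.0571 to 0.0687 for Sostdc1, from 0.0585 to 0.0845 for Slc13a4 and from 0.061 to 0.113 for Steap1. With age in cortex, the median difference was -0.57 in WT and 0.01 in Tg2576 mice. Of the 27 genes 0 were called in either (limma, 6 and 4 with unadjusted p under 0.05 beside 25.9% and 31% of all probes), beside 4.56% and 10.3% of all probes called.

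Between tissues, the choroid plexus genes were higher in whole brain than in cortex of WT mice at 17 months, where cortex held 2 of the 3 arrays lowest in miR-204. There 25 of 26 tested genes were higher, with a median of 0.41 beside -0.02 over all probes, and 16 did not overlap (17.8% of all probes). An unadjusted p under 0.05 was found for 13 of the 26, beside 30.9% of all probes. Limma called Slc4a5 (1.34, SE 0.18, adjusted p = 0.0207), Col8a2 (0.85, SE 0.183, adjusted p = 0.0416) and Sostdc1 (0.79, SE 0.17, adjusted p = 0.0418), where 3.86% of all probes were called higher. Other markers were higher there too, with 8 of 8 ependyma genes (median 0.68), 7 of 7 cerebellum genes (median 1.86) and 5 of 5 thalamus genes (median 0.47), and their part in the result was not tested. In the model of all 24 arrays that included the slide, none of the 3 calls remained (limma adjusted p = 0.528, 0.433 and 0.785). With the slide as a random block, Slc4a5 alone passed. With the replicate block or the unpaired test none of the 3 passed after adjustment. Leaving out 1 array, Slc4a5 passed only without cortex replicate 2 or 3, and Sostdc1 and Col8a2 only without cortex replicate 2. The adjusted p of the lost calls ran from 0.0587 to 0.122. In the other 3 tissue comparisons the median was -0.14 (WT, 10 months), -0.12 (Tg2576, 10 months) and -0.11 (Tg2576, 17 months). There 0 of 27 genes were called (limma, 0, 2 and 2 with unadjusted p under 0.05 beside 23.8%, 22.9% and 20.9% of all probes), beside 0.0101%, 0% and 1.97% of all probes called. miR-211* was higher in whole brain in all 4 tissue comparisons, while the median of the choroid plexus list was below 0 in 3 of them. With 0 genes called there, and no mRNA slide shared by the tissues compared, the sign of these medians is not read as a result. The source of the miR-211* difference was not tested.

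The miRNAs whose level was most like that of miR-204, among 271 detected on at least 12 arrays and after centring on the mean of each tissue, were miR-181b (r = 0.713), miR-34b-5p (0.711), miR-127 (0.678), miR-34c (0.667) and miR-532-5p (0.656). Without centring, their r was 0.644, 0.815, 0.74, 0.75 and 0.657. The likeness lay mainly in cortex, where r was 0.793 to 0.843, against 0.115 to 0.499 in whole brain. Among the 15764 genes, the most alike were Prlr (0.906; 0.932 without centring) and Lmx1a (0.89; 0.92), a transcription factor of the roof plate. They were followed by Lhfpl3 (0.805; 0.758), Lhx9 (0.779; 0.848), Gstm6 (0.775; 0.848), Col8a2 (0.766; 0.849), Ctbp2 (0.765; 0.85), Slc4a5 (0.76; 0.747), Frem3 (0.759; 0.725) and Zfp105 (0.752; 0.848). Of the 27 choroid plexus genes, 12 were among the 100 genes most like miR-204, out of 15764 compared. These 12 include Ttr and Kl, beside which the choice of miR-204 had placed it. miR-211 was constant at the floor and has no such measure.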

How the data were processed

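Total RNA was hybridised to 1-colour arrays and read by the authors with Agilent Feature Extraction (version 10.7.3.1, submitters' processing notes). The deposited scanner files hold intensity per spot, which the authors' software had background-subtracted (gProcessedSignal). The deposited series matrix holds the authors' log2 values, used as an alternative. The members and lists were chosen with earlier results of these data known. Spots of a probe were averaged without outlier spots. Each array was scaled to its 75th percentile signal. For miRNA the mean over probes was taken, with a common floor (log2 -5.6655), then log2. mRNA probes well above background on 2 or more of the 3 arrays in either group were tested with limma (3.58.1, R 4.3.3) on the 6 arrays compared, with Benjamini-Hochberg adjusted p under 0.05. A gene's brightest probe was used. The same test was run for miRNAs detected in this way. Correlations across arrays are given as descriptions. Code was tested on simulated data. Named genes were the members, strands and miRNAs of their host genes, Ttr, Kl, App, host genes, called choroid plexus genes (up to 8 per comparison) and the 5 miRNAs and 10 genes most like a member. Further genes of the lists were named after their values were seen. The number of arrays limits the precision.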

Additional observations from a re-analysis of the deposited data

Results flagged for a closer look

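The brightest of 3 probes of Htr2c (A_55_P1977503), the gene around Mir448, was higher in whole brain than in cortex of Tg2576 mice at 10 months by 0.26 (0.2594) and lower at 17 months, by -0.20 (-0.2006), with no overlap of the groups in either (14.8% of all probes lay higher and 16.1% lower without overlap). This change of direction was not seen on every probe: the difference was -0.24 at 10 months and -0.015 at 17 months on A_55_P2068461, and 0.21 and -0.12 on A_55_P2158921. Neither difference of the brightest probe passed limma's test (adjusted p = 0.199 and 0.25), and the difference between the ages was not tested.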

How the results depend on the processing

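The differences of miR-211* and Trpm1 between tissues, of Trpm3 in whole brain by age and of Ttr and Kl in cortex (by genotype at 17 months, by age in WT mice) turned sign in 0 of the settings run, those of miR-204 in 16 of 180. Counts of mRNA probes called moved by over 1.5 times in many settings, and the cause was not tested. With the main value in parentheses, the number of mRNA probes called was as follows. Every setting here, and for the choroid plexus genes below, used an adjusted p under 0.05. This includes the methods' t-test, for which the study itself used an unadjusted p with a fold threshold of 1.5 for mRNA. The counts are therefore not those of the study's own rule. Cortex at 10 months by genotype (0) gave 1 with normexp, 3 with 24 arrays in one model, 5 with 24 arrays and the slide as a block and 0 to 8 with 1 array left out. Cortex at 17 months by genotype (0) gave 1 with median scaling, 81 with 24 arrays in one model, 43 with the slide as a block and 10 with 24 arrays and the slide as a block. Whole brain at 10 months by genotype (0) gave 13 with 24 arrays in one model, 6 with the slide as a block, 40 with 24 arrays and the slide as a block and 0 to 1 with 1 array left out. Whole brain at 17 months by genotype (0) gave 1 with 24 arrays in one model, 2 with 24 arrays and the slide as a block and 0 to 1 with 1 array left out. WT cortex by age (1800) gave 609 with median scaling, 16 with no filter, 6052 with 24 arrays in one model, 0 with the replicate block, 0 with the slide as a block, 1189 with the methods' t-test, 5789 with 24 arrays and the slide as a block and 0 to 30 with 1 array left out. Tg2576 cortex by age (4025) gave 6394 with normexp, 51 with no filter, 7456 with 24 arrays in one model, 15 with the replicate block, 1532 with the methods' t-test, 116 with 24 arrays and the slide as a block and 23 to 1360 with 1 array left out. WT whole brain by age (10479) gave 5244 with no filter, 4760 with the replicate block, 960 with 24 arrays and the slide as a block and 5919 to 7868 with 1 array left out. Tg2576 whole brain by age (4598) gave 7217 with normexp, 10142 with no filter, 10147 with 24 arrays in one model, 13 with the replicate block, 1860 with the slide as a block, 2774 with the methods' t-test, 9230 with 24 arrays and the slide as a block and 42 to 2679 with 1 array left out. WT mice at 10 months by tissue (4) gave 19 with median scaling, 3127 with normexp, 2 with no filter, 2141 with 24 arrays in one model, 0 with the replicate block, 14 with the methods' t-test, 509 with 24 arrays and the slide as a block and 0 to 38 with 1 array left out. WT mice at 17 months by tissue (3921) gave 3 with no filter, 8244 with 24 arrays in one model, 2 with the replicate block, 797 with the slide as a block, 1354 with the methods' t-test, 72 with 24 arrays and the slide as a block and 3 to 5350 with 1 array left out. Tg2576 mice at 10 months by tissue (0) gave 19 with quantile normalization, 11 with median scaling, 1112 with normexp, 4052 with 24 arrays in one model, 112 with 24 arrays and the slide as a block and 0 to 2297 with 1 array left out. Tg2576 mice at 17 months by tissue (760) gave 2760 with normexp, 7208 with no filter, 3885 with 24 arrays in one model, 0 with the replicate block, 44 with the methods' t-test, 22 with 24 arrays and the slide as a block and 0 to 69 with 1 array left out. Genotype by age cortex (0) gave 5 with the slide as a block and 0 to 291 with 1 array left out. Genotype by age whole brain (0) gave 9 with the slide as a block and 0 to 718 with 1 array left out.

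For the number of choroid plexus genes called: WT cortex by age (0) gave 1 with normexp, 3 with 24 arrays in one model and 5 with 24 arrays and the slide as a block. Tg2576 cortex by age (0) gave 1 with median scaling, 4 with normexp and 1 with 24 arrays in one model. WT whole brain by age (3) gave 5 with normexp, 1 with no filter, 1 with 24 arrays in one model, 0 with the replicate block, 1 with the methods' t-test, 0 with 24 arrays and the slide as a block and 1 to 5 with 1 array left out. Tg2576 whole brain by age (1) gave 3 with normexp, 2 with 24 arrays in one model, 0 with the replicate block, 0 with the slide as a block, 0 with the methods' t-test and 0 to 0 with 1 array left out. WT mice at 17 months by tissue (3) gave 0 with no filter, 0 with the replicate block, 1 with the slide as a block, 0 with the methods' t-test, 0 with 24 arrays and the slide as a block and 0 to 6 with 1 array left out. Tg2576 mice at 10 months by tissue (0) gave 1 with normexp.

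The miR-204 differences (log2) moved by more than the pooled SD as follows. Cortex at 17 months by genotype (0.2541) gave 0.7453 with the percentile over all probes. Whole brain at 10 months by genotype (0.0177) gave -0.0716 with the total signal. Whole brain at 17 months by genotype (-0.1012) gave -0.193 with the percentile over all probes, -0.195 with quantile normalization and -0.2075 with the authors' log2 values. Tg2576 cortex by age (-0.0979) gave 0.3604 with the percentile over all probes. WT whole brain by age (0.0842) gave -0.0152 with the percentile over all probes. Tg2576 whole brain by age (-0.0346) gave -0.2664 with the percentile over all probes and -0.1408 with quantile normalization. Tg2576 mice at 17 months by tissue (0.2187) gave -0.4705 with the percentile over all probes. Leaving out 1 array moved none of these differences by more than the pooled SD. Arrays with miR-211 above the floor numbered 10 with the total signal, 9 with the brightest probe and 24 with the floor 4 times lower, against 0. As descriptions, r of miR-211* with Kl in cortex was 0.569 with the authors' log2 values and 0.592 with deviations from group means, r of miR-211* with Ttr was 0.487 without the 2 farthest arrays, and r of miR-204 with Kl in whole brain was 0.741 on a single slide.

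The replicate numbers were checked as pairs by the correlations of their deviations from group means. All 3 were above 0.1 for Tg2576 less WT in cortex at 10 months on the miRNA arrays (0.119, 0.406 and 0.509), and in no other comparison. The difference of miR-204 is the same with the replicate block there, and miR-211* again did not pass. In the other comparisons the samples share only a number. With the replicate block, miR-211* kept its call between tissues in WT mice at 10 months (limma adjusted p = 0.0474), and the fitted value at 17 months, where cortex was not above background, was 0.0287.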
